A study of Homo sapiens with 6 samples.

Results

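The genes described here are 43 genes of protein entry, folding and quality control in the endoplasmic reticulum (ER), out of 62438 genes in the count table. They were listed by symbol, with no measured value in the rule, and cover the stress sensors and XBP1, the lumenal chaperones and their partners, the disulfide enzymes, the calcium-binding CALU and RCN proteins, the degradation machinery, and the translocon with its SSR and SPCS partners. RNA-seq was done on a human breast cancer cell line labelled MDA-MB-453. Cells were transfected with 10 nM of either a siRNA against N6AMT1 (si-N6AMT1, 3 libraries) or a scrambled control siRNA (si-CN, 3 libraries), with Lipofectamine RNAiMAX as the reagent, and the labels give 48 h of transfection. N6AMT1 is a methyltransferase that the study examined for its part in adenine methylation of DNA, and the comparison asks which transcripts differ in amount after its knockdown. Both groups carried a siRNA and the reagent, and no untransfected cells were compared. The labels speak of triplicate cells without saying whether these were separate cultures, so p-values measure only the spread between these libraries, which may be technical.

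Proteins bound for the secretory pathway enter the ER through the SEC61 channel, where the signal peptidase complex, of which the SPCS proteins are subunits, removes the signal peptide. HSP70-type and HSP90-type chaperones, lectin chaperones and disulfide isomerases fold them, and proteins that fail are carried back to the cytosol for degradation. When unfolded proteins build up, the sensors ATF6, ERN1 (IRE1) and EIF2AK3 (PERK) start the unfolded protein response, which raises many chaperone genes and slows translation, and secretory epithelia such as the breast rely on this system.

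Library totals ran from 19739247 to 21289740 counts. N6AMT1 (ENSG00000156239, chr21:30244513-30257693 in GRCh37, the hg19 build) was at 3.08, 3.53 and 2.93 CPM (counts scaled to the library total by TMM) in the si-N6AMT1 libraries compared to 6.93, 6.86 and 6.65 CPM in the si-CN libraries, and fell by 1.10 on the log2 scale (adjusted p = 3.7e-07, edgeR's quasi-likelihood test with Benjamini-Hochberg adjustment over the 17320 genes tested, called FDR below). Of 8 luminal breast markers, 5 exceeded a mean of 1 CPM. KRT7, KRT8 and KRT18 were abundant, while SPDEF, KRT19 and AGR2 stayed below 1 CPM in every library. FOXA1 averaged 8.33 CPM in si-N6AMT1 and 8.42 CPM in si-CN, and GATA3 3.16 CPM and 2.67 CPM. All 6 basal and mesenchymal markers exceeded 1 CPM, with KRT5 at 755 to 838 CPM. MDA-MB-453 is usually described as a luminal line, and the low SPDEF, KRT19 and AGR2 and the high KRT5 differ from that description. No other line was compared, and the cells are therefore called by their label here. The summed luminal markers ranged from 1588 to 1602 CPM in si-N6AMT1 and from 1481 to 1521 CPM in si-CN, and the summed basal and mesenchymal markers from 4465 to 4555 CPM and from 4425 to 4521 CPM. Of 6 fibroblast markers, 3 exceeded 1 CPM, with sums of 57.8 to 61.5 CPM in si-N6AMT1 and 56.5 to 60.7 CPM in si-CN. None of 6 immune and plasma cell markers and neither of the 2 endothelial markers measured did. Mitochondrially encoded genes took 2.91% to 3.11% of the counts in si-N6AMT1 and 3.64% to 3.86% in si-CN. With these genes left out of the fit, the same number of ER genes was called in each direction.

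The ER genes did not move as a block. Of the 43 genes, 42 passed the filter on low counts, and of these 12 fell, 10 rose and 20 were not called at an FDR of 0.05. Over all 17320 genes tested, 21.3% were called, 11.5% lower and 9.78% higher, compared to 52.4% of the 42 ER genes. The ER genes are abundant, with a median of 129.9 CPM against 17.5 CPM for all genes tested, and abundant genes were called more often. Among genes with a mean of at least 50 CPM, a limit chosen after the values were seen, 42.4% were called, compared to 18 of 34 ER genes (52.9%). The libraries of the 2 groups did not overlap for 27 of the 42 ER genes (64.3%), 14 lower and 13 higher in si-N6AMT1, compared to 34.9% of all genes tested. This last share was not computed for genes of a like level, so the part of abundance in the difference was not tested.

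The changes were small and largely cancelled. The median log2 fold change was -0.01 over the 42 ER genes and 0.00 over all genes tested, with a range from -0.60 for CALU to 0.34 for SDF2L1. The median size of the called log2 fold changes was 0.15 among the ER genes and 0.18 among all called genes, and CALU alone among the called ER genes changed by at least 1.5-fold. The ER genes together took 1.44% ± 0.0108 of all counts in si-N6AMT1 and 1.45% ± 0.00763 in si-CN (SD, n = 3). The count of genes that rose depended on single control libraries: it was 5 without si-CN replicate 2 and 6 without si-CN replicate 3, while the count of genes that fell was between 11 and 13 when any library was left out. The libraries are bulk RNA, in which fewer cells of a kind and less RNA per cell cannot be told apart.

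**Figure D1:**
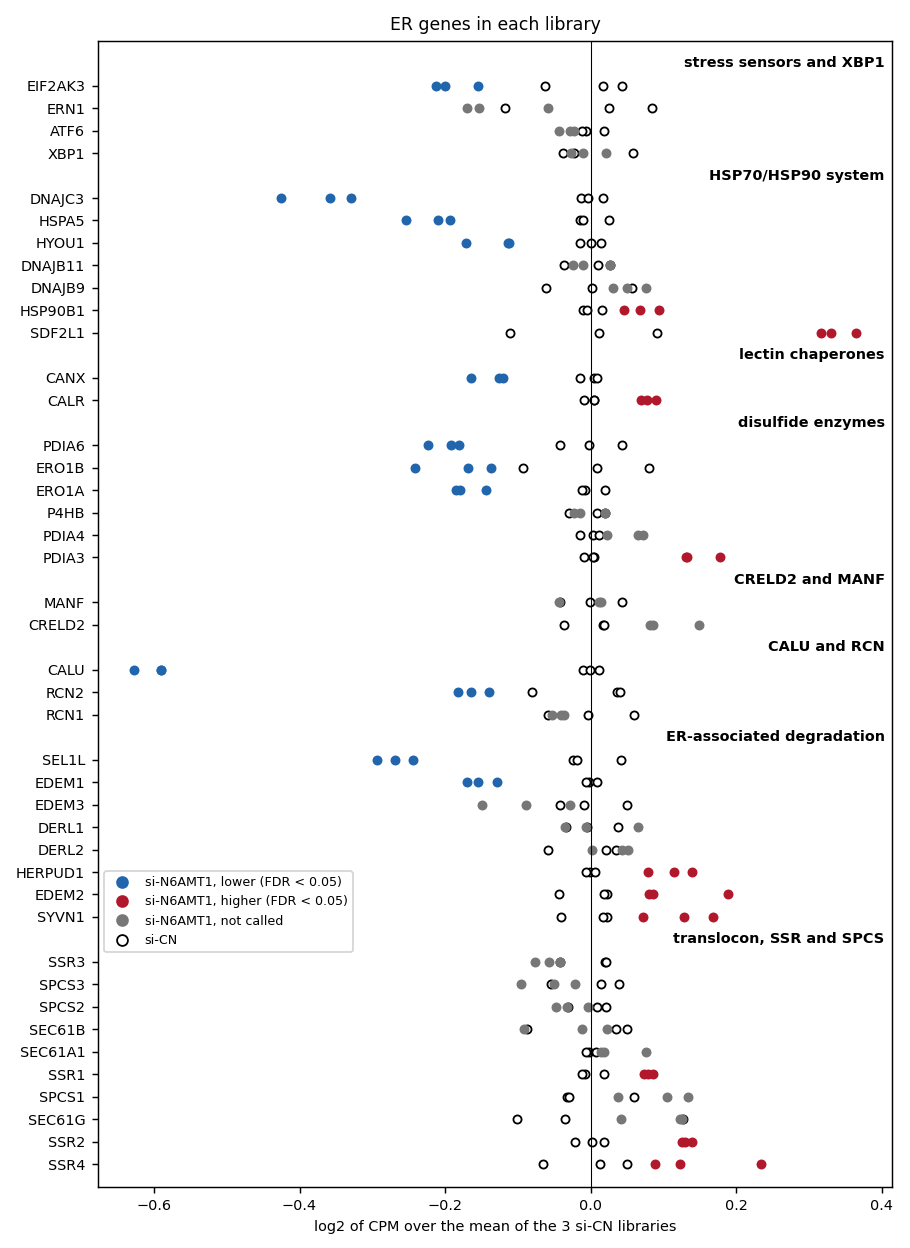
Level of 42 ER genes in each library, as log2 of the CPM over the mean of the 3 si-CN libraries (horizontal axis), with genes grouped by role (vertical axis). Open circles are the si-CN libraries and filled circles the si-N6AMT1 libraries, coloured by the edgeR call at an FDR of 0.05. CALU, DNAJC3, SEL1L and HSPA5 lie to the left of their controls and SDF2L1 to the right, and each group of chaperones holds genes on both sides.

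Levels differed widely between the genes, as estimated TPM (a share of all transcripts, computed from the counts and the length of 1 reference transcript a gene). In si-CN, HSP90B1 stood highest at 2213 ± 8.20 TPM (SD, n = 3), ahead of CALR at 1923 ± 18.8, SEC61G at 1336 ± 94.5, P4HB at 1093 ± 19.5 and HSPA5 at 677 ± 2.52 TPM. PDIA6 at 491 ± 9.78 TPM and SSR2 at 490.2 ± 3.71 TPM did not differ beyond their spread. ERN1 was the lowest of the genes tested, at 4.75 ± 0.301 TPM. Genes that fell ranged from ERO1B at 11.4 TPM to HSPA5, and genes that rose from SYVN1 at 31.3 TPM to HSP90B1.

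**Figure D2:**
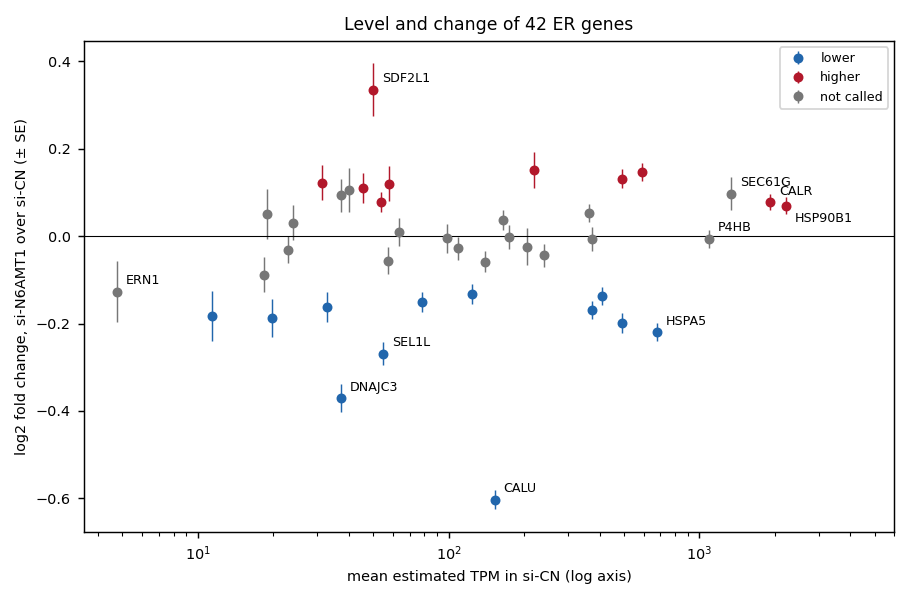
Log2 fold change of si-N6AMT1 over si-CN with its standard error (vertical axis) against the mean estimated TPM in si-CN on a log axis (horizontal axis), 1 point for each of the 42 ER genes tested. CALU at 153 TPM and DNAJC3 at 37.2 TPM lie lowest and SDF2L1 at 50.1 TPM highest, while HSP90B1 and CALR, the most abundant genes, lie just above 0.

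The promoters were searched for the ER stress element, a sequence bound by ATF6 together with NF-Y: CCAAT and, 9 bases on, CCACG. The rule of the list names no promoter sequence, but it chose genes of the unfolded protein response, which ATF6 helps to start. The share that carries the element is therefore a description and not a result independent of the list. Promoters (250 bases before to 50 after each start) were taken from RefSeq on GRCh38.p14, a later build than the hg19 of the counts, and both strands were searched. Of the ER genes, 39 had 1 or more promoters in the table, 49 promoters in all. The element was found in 10 of these 49 (20.4%), belonging to 8 genes since CANX was counted at each of 3 overlapping starts, compared to 27 of 35116 promoters in the table (0.0769%), so 8 of the 25 gene symbols that hold it are on the ER list. A second form, ATTGG, 1 base and CCACG, was found in the promoters of 3 ER genes (6.12% of the 49) and in 0.0541% of all promoters. These are shown because the genes that carry them went in both directions. In each sequence, written 5′ to 3′ on the strand of the gene, capitals mark the 2 arms of the element, which read CGTGG and ATTGG, or CGTGG and CCAAT, where the element lies on the other strand.
HSPA5, first form, chr9:125241379-125241421, minus strand: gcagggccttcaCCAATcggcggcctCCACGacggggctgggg
PDIA6, first form, chr2:10812841-10812883, minus strand: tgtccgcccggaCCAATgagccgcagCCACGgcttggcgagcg
CANX, first form, chr5:179698766-179698808, plus strand: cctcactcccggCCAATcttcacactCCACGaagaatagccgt
XBP1, first form, chr22:28800591-28800633, minus strand: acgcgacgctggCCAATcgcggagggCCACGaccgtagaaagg
CALR, first form, chr19:12938372-12938414, plus strand: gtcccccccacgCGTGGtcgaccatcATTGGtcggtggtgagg
CRELD2, first form, chr22:49918542-49918584, plus strand: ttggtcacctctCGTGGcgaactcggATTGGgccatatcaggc
ERO1B, first form, chr1:236282171-236282208, minus strand: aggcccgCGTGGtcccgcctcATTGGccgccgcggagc
HSP90B1, first form at 2 places, chr12:103930204-103930351, plus strand: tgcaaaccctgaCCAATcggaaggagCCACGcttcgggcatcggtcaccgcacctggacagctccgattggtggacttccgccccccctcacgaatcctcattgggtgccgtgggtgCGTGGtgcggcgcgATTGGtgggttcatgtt
HERPUD1, second form, chr16:56932013-56932047, plus strand: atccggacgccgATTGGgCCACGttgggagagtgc
SDF2L1, second form, chr22:21642102-21642136, plus strand: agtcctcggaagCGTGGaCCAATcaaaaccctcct

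HYOU1 also carries the second form, at 2 places. Of the 11 genes with either form, 5 fell (HSPA5, PDIA6, ERO1B, CANX and HYOU1), 4 rose (HSP90B1, CALR, HERPUD1 and SDF2L1) and 2 were not called (CRELD2 and XBP1). Their median log2 fold change was -0.00, with a range from -0.22 to 0.34, compared to -0.03 for the 28 tested ER genes with a promoter in the table and neither form, of which 7 fell, 5 rose and 16 were not called. The sequence TGACGTGG, bound by XBP1 and ATF6, was found for HYOU1, SSR3 and SSR4 and in 0.729% of all promoters. The arm CCACG alone, which is contained in both forms and, on the other strand, in TGACGTGG, was found in 73.5% of the ER promoters and 38.1% of all promoters. A match is a description of the letters and not a site shown to be bound.

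Among the sensors, which start the response, and XBP1, EIF2AK3 alone passed the test. Counts by role, here and below, are to be read against the 21.3% of all genes tested that were called. For abundant genes the 42.4% called among those with a mean of at least 50 CPM is the closer share. EIF2AK3, the kinase that slows translation, was at 36.2, 35.1 and 34.8 CPM in si-N6AMT1 and 40.7, 41.5 and 38.6 CPM in si-CN. The groups did not overlap, and it fell by 0.19 ± 0.04 (log2 fold change ± SE, FDR = 0.0030). XBP1, the transcription factor made active when ERN1 splices its mRNA, was at 77.6, 78.5 and 80.2 CPM in si-N6AMT1 and 82.4, 77.0 and 77.8 CPM in si-CN. Its groups overlapped throughout, and its log2 fold change was -0.00 ± 0.03 (FDR = 0.95); counts summed over a gene do not separate its spliced from its unspliced form. ATF6, the membrane-bound factor cleaved in the Golgi under stress, was at 75.3, 75.5 and 74.5 CPM in si-N6AMT1 and 77.7, 76.4 and 76.1 CPM in si-CN. Every si-N6AMT1 library lay just below every si-CN library, but the log2 fold change of -0.03 ± 0.03 did not pass the test (FDR = 0.54). ERN1, the sensor with the endonuclease, was at 16.2, 15.0 and 15.2 CPM in si-N6AMT1 and 17.9, 15.5 and 17.2 CPM in si-CN, with overlapping groups and a log2 fold change of -0.13 ± 0.07 (FDR = 0.22).

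The HSP70 and HSP90 system was divided, with 3 of 7 genes lower, 2 higher and 2 not called. HSPA5 (ENSG00000044574, chr9:127997132-128003661 in GRCh37), the ER HSP70 known as BiP, which also holds the sensors inactive, was at 1001, 1032 and 1045 CPM in si-N6AMT1 and 1215, 1182 and 1185 CPM in si-CN. All 3 knockdown libraries lay well below the controls, and HSPA5 fell by 0.22 ± 0.02 (FDR = 6.5e-08). DNAJC3 (ENSG00000102580, chr13:96329393-96447242), a co-chaperone of HSPA5 that also inhibits EIF2AK3, was at 72.9, 69.6 and 74.5 CPM compared to 92.7, 94.6 and 93.3 CPM. It fell by 0.37 ± 0.03 (FDR = 1.2e-08), the second largest decrease on the list, with a clear gap between the groups. HYOU1, a nucleotide exchange factor of HSPA5, was at 237, 228 and 238 CPM compared to 254, 257 and 259.5 CPM. Here the gap was narrow beside the level, and HYOU1 fell by 0.13 ± 0.02 (FDR = 0.00024).

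SDF2L1 (ENSG00000128228, chr22:21996591-21998588), another partner of HSPA5, went the other way. It was at 23.2, 23.4 and 23.9 CPM in si-N6AMT1 and 18.7, 17.2 and 19.8 CPM in si-CN, with no overlap and a wider spread among the controls. It rose by 0.34 ± 0.06 (FDR = 0.00026), the largest increase on the list. HSP90B1, the ER form of HSP90, rose by 0.07 ± 0.02 (FDR = 0.011), a call lost without si-CN replicate 2 or without si-N6AMT1 replicate 3. The HSPA5 co-chaperones DNAJB9 (0.05 ± 0.06) and DNAJB11 (-0.00 ± 0.03) were not called.

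The lectin chaperones, which hold glycoproteins during folding, were called in opposite directions. Calnexin (CANX), anchored in the membrane, was at 828, 804 and 825 CPM in si-N6AMT1 and 904, 892 and 906 CPM in si-CN. The groups were separate and CANX fell by 0.14 ± 0.02 (FDR = 2.6e-05), while its soluble counterpart calreticulin (CALR) rose by 0.08 ± 0.02 (FDR = 0.0035).

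Of 6 disulfide enzymes, 3 fell and 1 rose. PDIA6, an isomerase, was at 444, 441 and 431 CPM in si-N6AMT1 and 518, 489 and 502 CPM in si-CN. The groups did not overlap, and it fell by 0.20 ± 0.02 (FDR = 1.2e-06). ERO1A, the oxidase that recharges the isomerases, was at 756, 778 and 758 CPM compared to 870.4, 854 and 852 CPM. It fell by 0.17 ± 0.02 (FDR = 1.8e-06), again with separate groups. PDIA3, the isomerase that works with calnexin and calreticulin, was at 1071, 1070.0 and 1105 CPM compared to 981, 979 and 972 CPM. PDIA3 thus lay above its controls in every library and rose by 0.15 ± 0.02 (FDR = 9.1e-06). The second oxidase, ERO1B, fell by 0.18 ± 0.06 (FDR = 0.025), but its call was lost without si-CN replicate 1, si-CN replicate 3 or si-N6AMT1 replicate 2 and in both DESeq2 fits. P4HB (-0.01 ± 0.02) and PDIA4 (0.05 ± 0.02), both isomerases, were not called, nor were the secreted stress factors CRELD2 (0.11 ± 0.05, FDR = 0.15) and MANF (-0.01 ± 0.03, FDR = 0.92).

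CALU (ENSG00000128595, chr7:128379346-128413454), the calcium-binding protein calumenin, showed the largest change of the 42 genes. It was at 239.8, 234 and 240.0 CPM in si-N6AMT1 and 364, 359 and 361 CPM in si-CN. The 6 values formed 2 tight and distant groups, and CALU fell by 0.60 ± 0.02 (FDR = 5.9e-15), to 0.658 times its control level. RCN2, of the same family, fell by 0.16 ± 0.03 (FDR = 0.0012), and RCN1 was at -0.04 ± 0.03 (FDR = 0.27).

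Of 8 degradation genes tested, 2 fell and 3 rose. SEL1L (ENSG00000071537, chr14:81937891-82000197), the membrane scaffold of the SYVN1 ubiquitin ligase, was at 165, 162 and 159 CPM in si-N6AMT1 and 191, 201 and 192 CPM in si-CN. It fell by 0.27 ± 0.03 (FDR = 6.6e-08), with all knockdown libraries below all controls. EDEM1, which marks misfolded glycoproteins for removal, was at 197, 194 and 192 CPM compared to 215, 215 and 217 CPM, also without overlap. It fell by 0.15 ± 0.02 (FDR = 4.3e-05). The ligase SYVN1 (0.12 ± 0.04, FDR = 0.034), its partner HERPUD1 (0.11 ± 0.03, FDR = 0.022) and EDEM2 (0.12 ± 0.04, FDR = 0.035) rose, so SEL1L and the ligase it holds were called in opposite directions. These 3 increases were lost when any of several single libraries was left out, SYVN1 without any library but si-N6AMT1 replicate 2, HERPUD1 without any si-CN library or si-N6AMT1 replicate 2, and EDEM2 without si-CN replicate 2, si-CN replicate 3 or si-N6AMT1 replicate 2, and all 3 in both DESeq2 fits. EDEM3 (-0.09 ± 0.04), DERL1 (0.01 ± 0.03) and DERL2 (0.03 ± 0.04) were not called. DERL3, the other derlin, was not tested: it was at 0.353, 0.294 and 0.0975 CPM in si-N6AMT1 and 0.357, 0.102 and 0.236 CPM in si-CN, with overlapping groups, too low for a difference to be detectable at this depth.

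Of the 10 genes of the translocon, the translocon-associated SSR complex and the signal peptidase, none fell and 3 rose. The share called was 30%, compared to 21.3% of all genes tested and 42.4% of those with a mean of at least 50 CPM. SSR2, a subunit of that complex, was at 266, 267 and 269 CPM in si-N6AMT1 and 247, 245 and 241 CPM in si-CN. The groups were tight and apart, and SSR2 rose by 0.13 ± 0.02 (FDR = 0.00013). SSR4 rose by 0.15 ± 0.04 (FDR = 0.0094) and SSR1 by 0.08 ± 0.02 (FDR = 0.014). SSR3, the remaining subunit, was at -0.06 ± 0.02 (FDR = 0.090) and was not called. Its highest si-N6AMT1 library and its lowest si-CN library were both at 258.1 CPM, so its groups all but touched. The call of SSR1 was lost without si-CN replicate 2, that of SSR4 without si-CN replicate 3 or si-N6AMT1 replicate 3, and both by DESeq2 on all genes. The channel subunits SEC61A1 (0.04 ± 0.02), SEC61B (-0.02 ± 0.04) and SEC61G (0.10 ± 0.04) and the signal peptidase genes SPCS1 (0.09 ± 0.04), SPCS2 (-0.03 ± 0.03) and SPCS3 (-0.06 ± 0.03) were not called. SEC61G and SPCS1 were called higher without si-CN replicate 1 or without si-N6AMT1 replicate 1, SEC61G also with no filter on low counts, and SSR3 was called lower without si-CN replicate 2.

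The choice of fit was set against the calls. Over 14 alternative fits, 11 of the 12 decreases (all but ERO1B) were called in each, compared to 3 of the 10 increases (SDF2L1, PDIA3 and SSR2), and none of the 22 called genes changed direction.

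The 3′ UTRs of the genes were also searched for the 7-base sequences TTCACAT and TCACATA. These were picked earlier from fold changes of the same libraries, so the values are a description and no independent support. A site was found in 13 of the 42 ER genes (31.0%), compared to 22.2% of the 13300 tested genes with a 3′ UTR in the annotation (GENCODE v44 on GRCh37, 1 reference transcript a gene). Of the 12 genes that fell 7 had a site, of the 10 that rose 1 (SSR1), and of the 20 not called 5. The median log2 fold change was -0.15 with a site and 0.04 without, but UTR length moved with the sites: its median was 4040 bases with a site and 995 bases without, and its part in the difference was not tested. Over the 13300 genes, 28.4% of those with a site and 10.3% of those without were called lower. There too the median UTR length was greater with a site, 3174 bases compared to 969 bases, and its part was not tested. Sites are shown for the genes with the largest decreases among those that hold a site. They are written 5′ to 3′ on the strand of the gene in GRCh37, with the matching bases in capitals.
CALU, chr7:128409268-128409290, plus strand: cttctggtTTCACATgaaattgt
DNAJC3, chr13:96445151-96445174, plus strand: aaagaattTTCACATAgagtcaga
SEL1L, chr14:81942027-81942050, minus strand: tgaagagtTTCACATAattacaca
PDIA6, chr2:10924141-10924163, minus strand: gtattctgTCACATAatattttg

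In DNAJC3 and SEL1L both 7-base sequences overlap in a run of 8, and each of these genes holds further 7-base matches. The run of 8 is not particular to genes that fell. It was found in 4 of the listed genes, the others being SPCS3, which was not called (-0.06), and DERL3, which was not tested. HSPA5, CANX, ERO1A, HYOU1 and EIF2AK3 fell without a site, and ATF6, ERN1, SSR3, SPCS3 and DERL1 held a site and were not called.

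**Figure D3:**
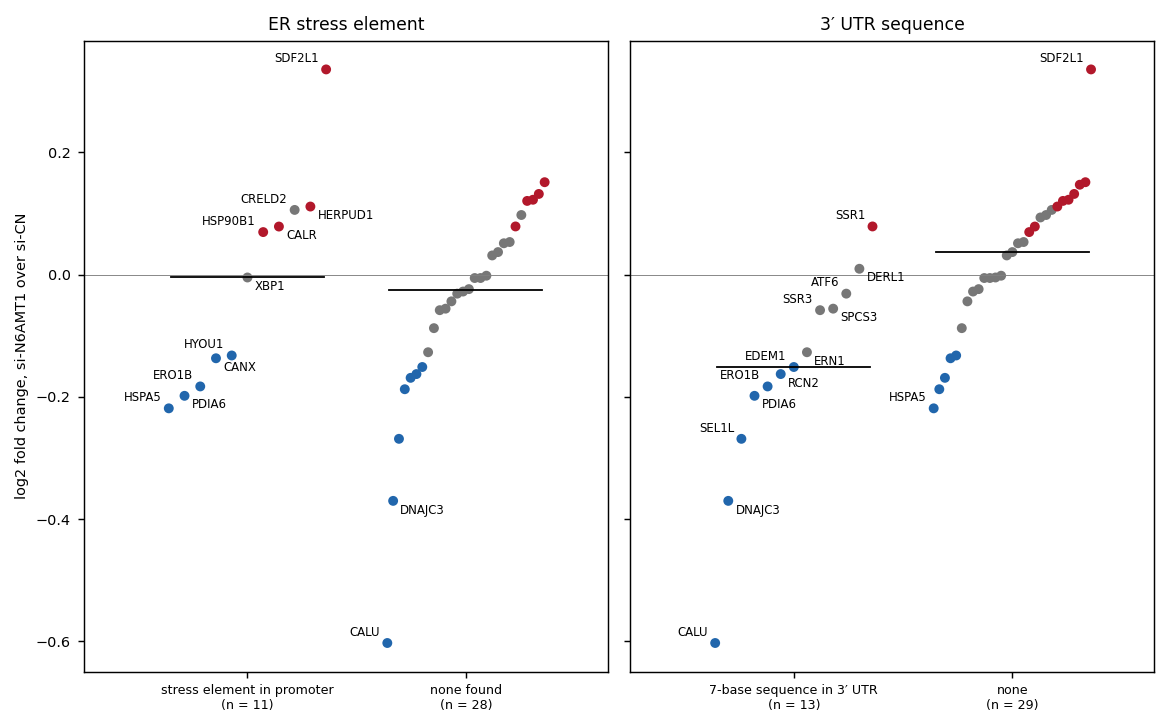
Log2 fold change of si-N6AMT1 over si-CN (vertical axis) for tested ER genes, split by an ER stress element of either form in the promoter (left, 11 genes with and 28 without) and by a 7-base sequence in the 3′ UTR (right, 13 genes with and 29 without). Points are genes coloured blue for lower, red for higher and grey for not called, and lines are medians, which lie at -0.00 and -0.03 on the left and at -0.15 and 0.04 on the right.

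A wider list of 115 other genes of ER entry, glycosylation, folding, degradation and stress signalling was mixed as well, with 27 lower, 14 higher and 74 not called and a median log2 fold change of 0.01. The share called was 35.7%, compared to 21.3% of all genes tested and 42.4% of those with a mean of at least 50 CPM. Its 3 decreases with the smallest FDR were in SRP14, a subunit of the signal recognition particle, MBTPS2, the protease that frees ATF6 from the membrane, and TXNDC5, a disulfide isomerase. SRP14 was at 109.8, 117 and 112 CPM in si-N6AMT1 and 160.0, 154 and 158 CPM in si-CN, and fell by 0.48 ± 0.03 (FDR = 2.9e-11). MBTPS2 was at 21.4, 22.0 and 21.5 CPM compared to 37.2, 36.1 and 38.8 CPM, and fell by 0.79 ± 0.05 (FDR = 5.8e-11). Both stood well apart from their controls. TXNDC5 was at 195, 197 and 187 CPM compared to 242, 236 and 243 CPM, without overlap, and fell by 0.32 ± 0.03 (FDR = 3.0e-09).

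The 3 increases with the smallest FDR on the wider list were in PDIA5, an isomerase, DDIT3, the stress-induced transcription factor CHOP, and PPIC, a prolyl isomerase. PDIA5 was at 89.3, 88.6 and 87.2 CPM in si-N6AMT1 and 71.4, 78.2 and 77.1 CPM in si-CN, and rose by 0.23 ± 0.03 (FDR = 3.7e-05). DDIT3 was at 80.6, 83.5 and 79.2 CPM compared to 72.1, 68.6 and 70.1 CPM, and rose by 0.21 ± 0.03 (FDR = 6.7e-05). The groups of each were apart. PPIC rose by 0.23 ± 0.04 (FDR = 0.00012), from 53.3, 51.0 and 52.9 CPM in si-CN to 58.8, 61.4 and 64.5 CPM, also apart.

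By role, the 15 further genes of the signal recognition particle and translocon held 3 decreases (SRP14, SRP72 and SEC62) and no increase, and 11 oligosaccharyltransferase genes, which attach glycans, held 4 decreases (STT3A, STT3B, OSTC and MAGT1) and 2 increases (DAD1 and KRTCAP2). The 13 genes of the EMC and GET insertion routes held 2 decreases (EMC2 and MMGT1) and 1 increase (EMC10), and the 34 further folding genes 8 and 6. Of the 24 further degradation genes 5 fell (among them FAM8A1, ERLEC1 and HERPUD2) and 3 rose (TMUB2, MAN1B1 and HM13). Among 18 further stress signalling genes 5 fell (MBTPS2, CREB3, CREB3L2, PPP1R15A and MBTPS1) and 2 rose (DDIT3 and CEBPB). These counts by role are to be read against the 11.5% of all genes tested that were called lower and the 9.78% called higher. Among genes with a mean of at least 50 CPM, 42.4% were called in either direction. PPP1R15A, which restores translation after EIF2AK3 has slowed it, fell by 0.18 ± 0.02 (FDR = 3.3e-06), and ATF4, the factor upstream of DDIT3, was at 0.03 (FDR = 0.45).

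**Figure D4:**
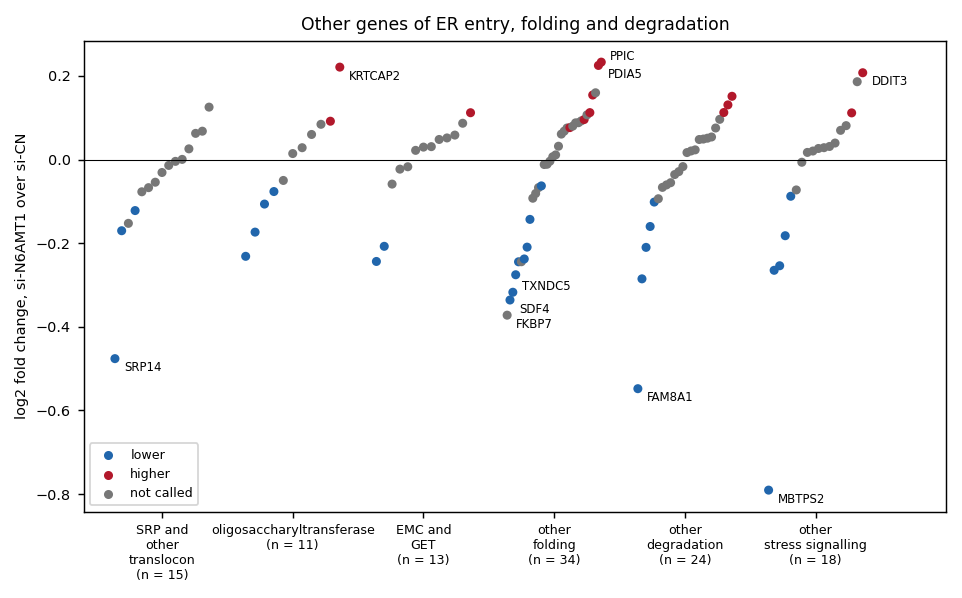
Log2 fold change of si-N6AMT1 over si-CN (vertical axis) for 115 other ER genes by role (horizontal axis), 1 point a gene, coloured blue for lower, red for higher and grey for not called at an FDR of 0.05. MBTPS2 at -0.79, FAM8A1 at -0.55 and SRP14 at -0.48 lie lowest, and PPIC at 0.23 lies highest.

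Some counts carry an uncertainty of their own. In the annotation, 30 of the ER genes overlap a gene on the opposite strand, 16 of them among the 22 called, and 12 overlap another gene on the same strand. The kit marks strand, but whether the counting used it is not given in the sources used here. Numbered pseudogenes exist for 8 of the genes and took at most 2.90% of the gene's counts, above 1% for SSR4 alone.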

How the data were processed

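Per the submitters' processing notes, Trim Galore and kallisto 0.46.0 were used by the authors, with build hg19. The table they deposited holds estimated counts (expected counts), as unnormalized whole numbers for each gene. Genes that overlap or have close copies have uncertain counts, since kallisto shares ambiguous reads by an estimate. Symbols came from GENCODE v44 on GRCh37 and matched 62149 of 62438 identifiers.

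Counts were tested with edgeR 4.0.16 in R 4.3.3 on all 6 libraries, with no covariate. Its expression filter with a minimum count of 10 left 17320 genes, libraries were scaled by TMM, and calls were made with the quasi-likelihood test at a Benjamini-Hochberg FDR under 0.05 over all genes tested. Each standard error was derived from the log2 fold change and its F statistic. The procedure was tested on counts simulated with 1.5-fold changes and a common dispersion. It recovered 76.9% of the changed genes, and 6.83% of its calls were false. Smaller changes, as in all called ER genes but CALU, were not simulated. Alternatives were DESeq2 1.42.0, limma-voom (limma 3.58.1), other size factors, no filter, mitochondrial genes left out, a replicate block and each library left out. A level of 1 CPM is 19.6 to 21.2 counts in a library. Within a group, the squared differences of library pairs were 1.35 to 1.69 times what sampling noise alone would give. All 6 libraries were used. This excess cannot tell separate cultures from technical repeats, since no libraries known to be technical repeats were compared. The biological coefficient of variation, the spread between libraries beyond sampling noise, was 1.85%. The standard errors and FDRs rest on this small spread, which may be technical.

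Values in every library are given for the sensors, HSPA5, the 12 listed genes with the smallest FDR and any gene that failed the filter, and for the 3 lower and 3 higher genes of the wider list with the smallest FDR. Other wider-list genes were named where a count was 5 or fewer, though only some of the degradation genes that fell. ATF4, PPP1R15A and FAM8A1 were named after their values were seen. The genes, lists, 3′ UTR sequences and tests were chosen with earlier results of these data known. Promoters of PDIA3, DERL1, DERL3 and SPCS1 were not used here. A marker gene and a gene of the wider list are not reported here by name, and values over the markers leave the former out.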

Additional observations from a re-analysis of the deposited data

How the results depend on the processing

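Under 14 alternative fits the number of ER genes that fell stayed between 11 and 13 (main value 12), and no called gene changed direction. The number that rose was 10. It was 5 by DESeq2 on all genes, 7 by DESeq2 on genes with a TPM of at least 1, and between 5 and 11 with 1 library left out (5 without si-CN replicate 2 and 6 without si-CN replicate 3). The cause was not tested. The wider list had 21 to 27 genes called lower and 10 to 16 called higher, and the median of the ER genes stayed between -0.02 and 0.01. N6AMT1 kept its direction at -1.18 to -1.04 with a library left out, and DESeq2 on all genes gave it no adjusted p.

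The replicate numbers did not pair the libraries: deviations of same-numbered libraries correlated at -0.04, -0.04 and 0.01. With a replicate block, 12 ER genes fell and 8 rose, with HSP90B1 (FDR = 0.063) and SYVN1 (FDR = 0.053) no longer called. With the replicate block and a GC correction 11 fell and 8 rose, 6 of the 8 shared with the 10 by edgeR without it. CALR (FDR = 0.070), ERO1B, EDEM2, SYVN1 and SSR4 were then not called, and SEC61G (FDR = 0.014) and SPCS1 (FDR = 0.031) were. On the wider list 22 genes were then lower and 12 higher, of which 21 and 9 were shared.

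Small changes near the threshold, such as those of SYVN1, EDEM2 and ERO1B, are limited by 3 libraries a group and are not firm at this depth.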
